A study of Mus musculus with 12 samples.

Results

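The earliest response of PT-22 kidney cells to 4-hydroxytamoxifen was read by comparing the 3 RNA libraries labelled day 2 with the 3 libraries of untreated control cells, each assigned by its label alone. These 6 libraries are part of a series of 12, whose other 6 come from days 6 and 12. PT-22 is 1 proximal tubule epithelial line of mouse kidney. Per the labels, control and day 2 cells share one genotype: Pax2-/-, a Pax8 gene with both alleles flanked by loxP (Pax8fl/fl) and a Cre recombinase fused to a modified oestrogen receptor at the Rosa locus (Rosa-CreERT2). The treated cells were confluent and received 1 µM 4-hydroxytamoxifen for 2 days. Control cells received no drug, and there is neither a vehicle control nor an untreated culture of a matching day. Drug exposure, Cre activity, time in culture and loss of PAX8 therefore cannot be told apart in this comparison. Whether libraries A, B and C of a group are separate cultures is not in the labels, and the p-values therefore reflect only how these libraries scatter, which may be technical.

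PAX8 is a paired-box transcription factor that, with its relative PAX2, specifies the kidney epithelium and stays on in its mature tubules. CreERT2 is held in the cytoplasm until 4-hydroxytamoxifen binds it, after which it enters the nucleus and removes DNA between loxP sites. PAX8 protein made before the deletion lasts until it is degraded. The proximal tubule, the tissue the line comes from, takes back most of the filtered salt, water, amino acids, sugar and protein through carriers and receptors in an apical brush border, driven by the sodium gradient across its membrane.

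The 6 libraries held between 4326667 and 11654959 counts, and 13513 genes passed the filter on low counts. Levels below are CPM, counts scaled to a common library total by TMM; each is the mean with its SD (±) of a group's 3 libraries (n = 3). Differences are log2 fold changes, day 2 minus control, with their standard error (SE), and adjusted p values come from the quasi-likelihood test of edgeR, corrected by Benjamini-Hochberg over all tested genes, with a threshold of 0.05. Day 2 B stood apart from its replicates: it had the lowest total, 5.70% of its counts were from mitochondrially encoded genes against 4.00% to 4.89% in the other 5 libraries, and it lay at -16.67 on the second principal component against 7.41 for day 2 A and 12.15 for day 2 C. The first component, with 63.01% of the variance, put all control libraries between -20.7 and -19.44 and the day 2 libraries between 16.12 and 24.04.

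The label of the tissue was checked with marker genes. The summed level of 24 proximal tubule markers lay between 2568 and 2717 CPM in control and between 1556 and 1669 CPM at day 2. Most of the control sum came from the cadherins Cdh16 and Cdh6. Cdh16 fell from 1103 ± 53.5 to 454 ± 19.8 CPM and Cdh6 from 730 ± 23.1 to 340 ± 6.81 CPM. Of the 24, 11 had a mean under 1 CPM in both groups. Of the 13 tested, 10 were lower and 1, Aqp1, was higher. Kap, Slc13a3, Slc34a1, Slc5a12 and Slc5a2, which define the mature segment, had no count in any of the 6 libraries. Markers of the thick limb and distal tubule summed to 0.702 CPM or less in every library, and those of the collecting duct went from between 3.32 and 5.12 to between 0.935 and 1.63 CPM. The summed fibroblast and pericyte markers went from between 6.92 and 7.72 to between 18.8 and 24.3 CPM, while Col1a2, Col3a1, Lum, Pdgfra and Rgs5 of that list stayed at 0 in all 6 libraries. Markers of endothelium summed to between 36.4 and 37.8 CPM in control and between 49.5 and 52.5 CPM at day 2, and those of leukocytes to between 23.3 and 27.0 and between 18.5 and 19.6 CPM. Markers of other nephron cells were present too. Those of parietal epithelium summed to between 1829 and 1945 CPM in control and between 1073 and 1138 CPM at day 2, most of it from Akap12, a kinase anchor that fell from 1567 ± 57.4 to 647 ± 69.2 CPM (adjusted p = 3.01e-18); Pax8 is also on that list. Those of podocytes summed to between 205.5 and 212 CPM and between 235.9 and 256.5 CPM. In bulk RNA, fewer cells of a type and less RNA per cell cannot be told apart.

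The transcripts of the engineered genes did not fall. Pax8 (ENSMUSG00000026976, GRCm38 chromosome 2, 24420560 to 24475599) was at 221, 228 and 226 CPM in control A, B and C and at 378, 460.4 and 367 CPM in day 2 A, B and C. Every day 2 library was above every control library, with day 2 B highest. The difference was 0.83 ± 0.07 (SE) on the log2 scale (adjusted p = 5.59e-12; exact two-sided permutation test of CPM, p = 0.1, the smallest that 3 against 3 libraries allow). Pax2 (GRCm38 chromosome 19, 44756045 to 44837871), a gene the genotype lists as lost, was nevertheless counted, at 42.6, 44.4 and 53.4 CPM in control A, B and C and at 68.3, 84.6 and 61.996 CPM in day 2 A, B and C. Its groups did not overlap either, and the rise was 0.58 ± 0.10 (SE) on the log2 scale (adjusted p = 1.53e-04; exact two-sided permutation test, p = 0.1). The Cre transcript stood at 24.9, 29.5 and 24.3 CPM in control A, B and C and at 24.9, 25.96 and 27.2 CPM in day 2 A, B and C. Its groups overlapped fully (adjusted p = 0.986; exact two-sided permutation test, p = 1). Gene-level counts include reads from exons outside a deleted stretch, and the sources used here do not give the loxP-flanked exons of Pax8, which leaves both the deletion and the labels unchecked by these values.

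**Figure D1:**
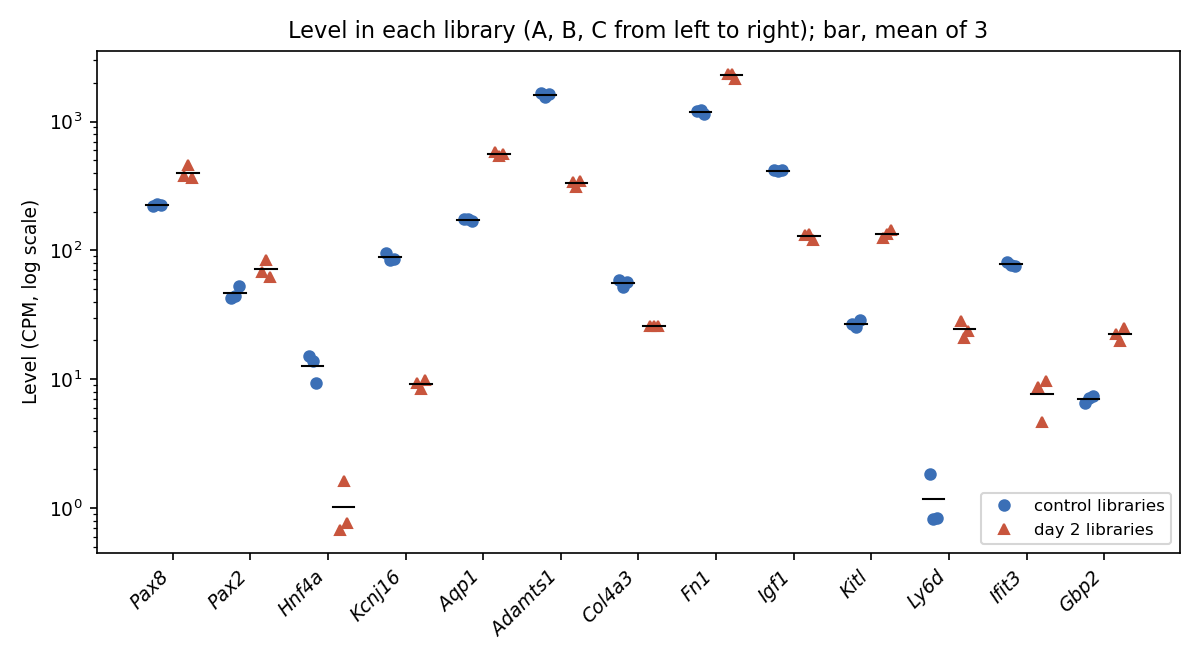
Level of 13 genes in each control library (blue circles) and each day 2 library (red triangles), in CPM on a log axis, with the group mean as a bar. For every gene drawn the 3 libraries of one group lie on one side of the 3 of the other.

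Across all genes, 2860 of 13513 (21.2%) passed the threshold: 1392 (10.3%) were higher and 1468 (10.9%) were lower at day 2. These shares are the background for each count of a gene group below, and the median log2 fold change of all tested genes was -0.0015. Changes of at least 2-fold were fewer, 249 up and 334 down. For 9083 genes the 95% interval of the difference lay within 1.5-fold either way. The share called rose with the level of the gene, from 14.4% among the 3379 genes of lowest level to 28.0% among the 3378 of highest level, while the median size of a called change went from 1.39 to 0.289 on the log2 scale, so small changes were called mostly in abundant transcripts. Without day 2 B, 2632 genes passed, of which 2422 were among the 2860.

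**Figure D2:**
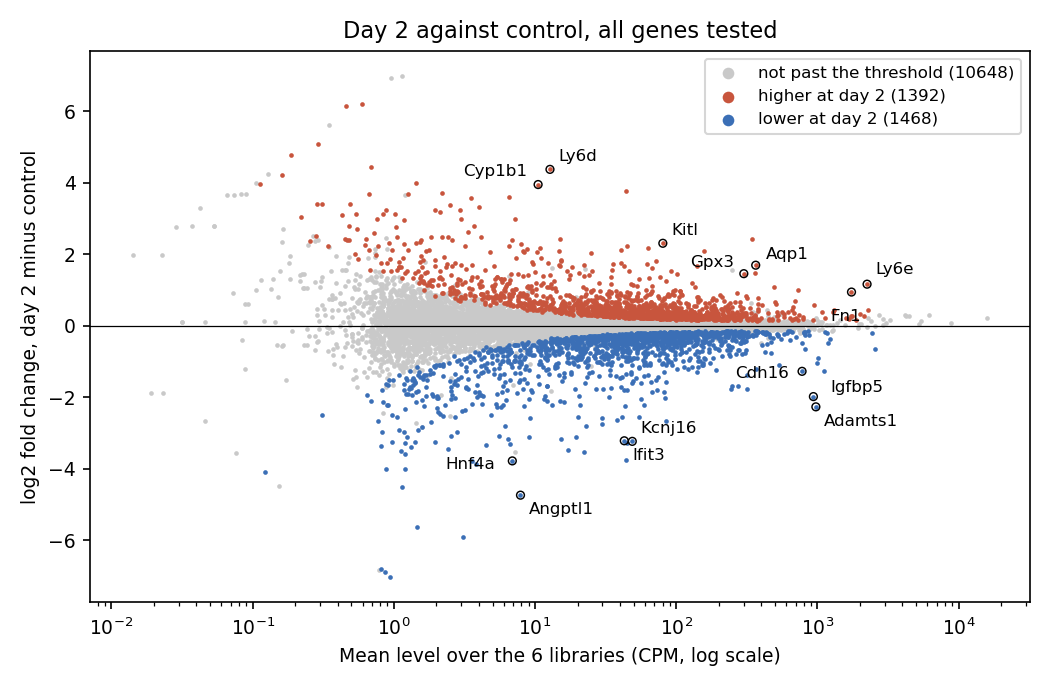
log2 fold change (day 2 minus control) against mean level over the 6 libraries (CPM, log axis) for the tested genes, leaving out 5 with no count in these libraries. Red points were higher (1392), blue points lower (1468) and grey points not past the threshold, and 14 genes of the text are circled.

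In absolute terms, a few abundant genes carried the largest shifts. The greatest gain in CPM was that of Ly6e, a small membrane-anchored surface protein, from 1390.4 ± 86.8 to 3105 ± 236 CPM. Next came Fn1, the matrix protein fibronectin, from 1195 ± 35.8 to 2291 ± 117 CPM, and Scd2, a fatty acid desaturase, from 1945 ± 11.8 to 2629 ± 238 CPM. The scaffold gene Ahnak went from 491 ± 16.98 to 974 ± 101 CPM and the ferritin heavy chain Fth1 from 758 ± 66.1 to 1135 ± 182 CPM. The greatest loss was that of Adamts1, a secreted metalloproteinase; that of Igfbp5, a binding protein of insulin-like growth factors, was also among the largest, and their values are given with their families below. App, the amyloid precursor, fell from 1379 ± 67.3 to 988 ± 44.99 CPM, and Ivns1abp from 1330.4 ± 93.96 to 646 ± 55.9 CPM. Among the 20 genes with the largest relative falls of those with a mean of at least 5 CPM and no overlap between the groups were Rasl11b, a small GTPase-like protein, from 81.95 ± 4.52 to 5.96 ± 0.602 CPM, Adgra1, an adhesion receptor, from 81.4 ± 2.76 to 7.98 ± 1.71 CPM, Arhgap24, which switches off small GTPases, from 148 ± 4.94 to 22.2 ± 5.24 CPM, and Gas1, a hedgehog co-receptor, from 65.7 ± 6.12 to 10.4 ± 0.481 CPM. Adjusted p for the genes of this paragraph ran from 8.20e-23 to 5.56e-04.

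Transcription factors of the tubule moved both ways, by family. Of 18 tested hepatocyte nuclear factors and nuclear receptors, 9 were lower and 1 higher. Hnf4a, which drives the proximal tubule and liver programmes, was at 15.1, 13.8 and 9.41 CPM in control A, B and C and at 0.6801, 1.64 and 0.769 CPM in day 2 A, B and C. The lowest control library was more than 5 times the highest day 2 library. The metabolic receptor Esrrg fell from 19.6 ± 1.88 to 9.601 ± 1.41 CPM (-1.05 ± 0.18 (SE) on the log2 scale). The coactivator of mitochondrial genes Ppargc1a fell from 69.5 ± 4.46 to 51.5 ± 4.56 CPM and Esrra from 31.3 ± 2.99 to 22.03 ± 2.86 CPM.

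Of 28 nephric and developmental factors, 8 were higher and 5 lower. Among those higher were Lhx1, a factor of the early nephron, Eya1, a cofactor of nephron progenitors, Sox9, a factor of repairing tubules, from 13.4 ± 1.33 to 21.4 ± 4.63 CPM, and Sox4 from 211 ± 9.56 to 254 ± 21.02 CPM. Maf, a basic leucine zipper factor, rose from 39.4 ± 2.77 to 65.5 ± 4.53 CPM. The Iroquois genes Irx3 and Irx5, which mark segments of the developing nephron, fell from 88.8 ± 10.2 to 64.9 ± 6.88 CPM and from 42.5 ± 7.75 to 22.8 ± 3.34 CPM. The epithelial ETS factor Ehf fell from 34.1 ± 3.25 to 21.2 ± 0.521 CPM.

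Of 12 Krüppel-like zinc finger factors 6 were higher and 0 lower by edgeR (lower at an unadjusted p under 0.05: 1; lower by DESeq2 and by limma: 0). Klf6 rose from 99.4 ± 7.91 to 144 ± 10.1 CPM, Klf5 from 15.1 ± 1.25 to 25.4 ± 2.1004 CPM and Klf7 from 34.1 ± 1.22 to 54.3 ± 3.19 CPM. Among 18 forkhead factors 6 were higher, of which Foxo1, a factor that growth signals hold out of the nucleus, rose from 78.8 ± 4.602 to 142 ± 8.07 CPM, and 1, the stromal factor Foxd1, was lower. Of 12 factors known from switches between epithelial and mesenchymal states 5 were higher and 1 lower. Zeb1, a repressor of epithelial genes, rose from 22.8 ± 0.905 to 42.2 ± 0.923 CPM and the runt factors Runx1 and Runx2 from 40.3 ± 4.27 to 59.7 ± 7.39 CPM and from 4.697 ± 0.721 to 17.5 ± 1.49 CPM. Ovol1, a factor that represses Zeb1, fell from 6.83 ± 1.32 to 1.55 ± 0.298 CPM. For the genes named in the last 3 paragraphs adjusted p ran from 2.41e-17 to 0.00295. Of these, Esrrg, Esrra, Sox9, Ehf, Runx1 and Ovol1 lost significance with limma on log2(TPM + 0.1).

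Within apical transport the loss was uneven. The brush-border group, peptidases and structural proteins of the microvilli, had 13 of 17 tested genes lower and 1 higher, with a median log2 fold change of -1.13. Anchoring and structural members were among those that fell: the scaffold Pdzk1 from 8.28 ± 0.0235 to 0.757 ± 0.245 CPM and the actin bundler Vil1 from 4.97 ± 0.321 to 1.69 ± 0.834 CPM. Peptidases fell too, Mme (neprilysin) from 216 ± 11.5 to 149.7 ± 1.11 CPM, Enpep from 96.98 ± 3.85 to 64.3 ± 2.06 CPM and Ace, the angiotensin-converting enzyme, from 18.9 ± 2.23 to 4.45 ± 1.05 CPM. With a mean of at least 5 CPM required, 7 members of the group were lower, since several lie under that level.

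The carriers showed no such tilt. Of 25 amino acid and peptide carriers 4 were higher and 4 lower, and of 19 carriers of sugar, phosphate, sulfate and carboxylates 3 and 3. Slc6a6, the taurine carrier, rose from 404 ± 7.58 to 619 ± 45.5 CPM. Slc38a3, a glutamine carrier used in acid excretion, fell from 8.62 ± 0.9596 to 4.18 ± 0.9999 CPM, and Slc37a4, which moves glucose 6-phosphate in gluconeogenesis, from 17.6 ± 1.45 to 9.86 ± 0.883 CPM. Of 15 organic ion carriers and ABC pumps 3 were higher and 4 lower: Slc47a1, which extrudes organic cations into the urine, fell from 6.53 ± 1.104 to 1.76 ± 0.351 CPM, and Abcc3 rose from 97.1 ± 4.09 to 146 ± 5.52 CPM. Of 8 endocytic receptors and adaptors 1 was higher and 3 lower. Lrp2 (megalin), the main receptor for filtered proteins, fell from 268 ± 17.2 to 112 ± 10.3 CPM (-1.25 ± 0.07 (SE) on the log2 scale). Clcn5, the chloride-proton exchanger of apical endosomes, fell from 115 ± 3.102 to 74.03 ± 3.41 CPM, whereas Dab2, the adaptor of Lrp2, rose from 89.8 ± 4.53 to 124 ± 15.6 CPM. Adjusted p for the genes of these paragraphs on transport ran from 7.52e-17 to 5.26e-04. Vil1 and Slc47a1 lost significance with limma on log2(TPM + 0.1).

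Among ion transport genes of the basal membrane several fell, while the water channel rose. Atp1b1, a beta subunit of an ion pump, fell from 547 ± 24.95 to 397 ± 30.3 CPM (adjusted p = 1.04e-07). Kcnj16 (GRCm38 chromosome 11, 110968033 to 111027968), a basolateral potassium channel subunit that lets potassium leave the cell, was at 95.2, 83.7 and 86.5 CPM in control A, B and C and at 9.39, 8.42 and 9.82 CPM in day 2 A, B and C. No day 2 library came near a control library, and the difference was -3.24 ± 0.11 (SE) on the log2 scale (adjusted p = 5.07e-22). Of 12 potassium channels 5 were lower and 1 higher, and the basolateral sodium bicarbonate carrier Slc4a4 fell from 98.5 ± 2.05 to 62.8 ± 0.827 CPM. Car2, the cytosolic carbonic anhydrase that feeds it, fell from 108 ± 7.105 to 52.4 ± 0.834 CPM. Aqp1, the water channel of the proximal tubule and a member of the proximal marker list, was by contrast at 176, 174 and 169 CPM in control A, B and C and at 578, 537 and 559 CPM in day 2 A, B and C. All day 2 libraries exceeded all control libraries, with a difference of 1.69 ± 0.12 (SE) on the log2 scale (adjusted p = 1.88e-06). Scnn1a, a subunit of the epithelial sodium channel of more distal segments, rose from 9.38 ± 1.57 to 25.7 ± 3.97 CPM. Over the 27 genes of sodium, chloride, proton and water transport the count was 7 higher and 8 lower.

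Cell junctions changed in part. Of 20 cadherins, catenins and nectins 5 were higher and 7 lower. Jup (plakoglobin), a catenin of desmosomes, rose from 144 ± 7.76 to 207 ± 8.41 CPM, while the epithelial cadherin Cdh1 fell from 27.4 ± 2.61 to 17.4 ± 3.99 CPM. The tight junction group had 3 higher and 5 lower of 22, with Cldn1 down from 41.2 ± 2.24 to 24.2 ± 5.18 CPM and Epcam, an epithelial adhesion molecule, from 94.7 ± 7.32 to 63.3 ± 6.04 CPM. Polarity proteins tended to the lower side, with 5 lower and 1 higher of 21; the PAR complex subunit Pard6b fell from 177 ± 5.597 to 122 ± 10.04 CPM and the basolateral determinant Llgl2 from 122 ± 8.48 to 80.01 ± 0.183 CPM. For these genes adjusted p ran from 1.41e-08 to 7.65e-05. Cdh1 lost significance with limma on log2(TPM + 0.1).

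Extracellular matrix genes moved both ways, and most tested chains of collagen IV and laminin were lower. Of 6 tested chains of collagen IV, the sheet-forming collagen under epithelia, 5 were lower, and Col4a6 did not pass. Col4a3 was at 58.7, 51.6 and 56.8 CPM in control A, B and C and at 25.8, 25.7 and 25.96 CPM in day 2 A, B and C. The 3 control values all lay above the 3 day 2 values, and its head-to-head neighbour Col4a4 moved with it, from 80.1 ± 3.26 to 37.6 ± 2.97 CPM. The other pair, Col4a1 and Col4a2, fell from 248 ± 13.2 to 152 ± 13.3 CPM and from 238 ± 17.4 to 125 ± 3.31 CPM, and Col4a5 from 82.3 ± 3.47 to 57.5 ± 5.48 CPM. Col18a1, another basement membrane collagen, fell from 1002 ± 49.01 to 634 ± 7.64 CPM. Of 7 tested laminin chains 5 were lower, among which Lamc1 fell from 368 ± 20.02 to 213 ± 11.7 CPM and Lama1 from 46.998 ± 4.48 to 21.95 ± 0.505 CPM. Npnt, a basement membrane ligand that calls in GDNF during kidney budding, fell from 386 ± 11.9997 to 239.9 ± 6.89 CPM.

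Several fibril-associated and matricellular genes rose. Col12a1 rose from 15.2 ± 0.943 to 66.1 ± 6.76 CPM, Col14a1 from 0.932 ± 0.108 to 6.43 ± 0.716 CPM and the fibrillar Col5a1 from 52.5 ± 1.82 to 77.8 ± 6.98 CPM. Col14a1 passed the filter on low counts only through treated libraries, so it could be called higher but hardly lower. Ccn2, a matricellular growth factor modulator, rose from 29.1 ± 4.51 to 94.7 ± 16.4 CPM and its relative Ccn4 from 31.3 ± 1.76 to 67.9 ± 2.295 CPM, and the proteoglycan versican (Vcan) from 65.3 ± 2.58 to 121 ± 1.28 CPM. In all, 14 of 33 collagens and collagen enzymes were higher and 9 lower, and 13 of 28 matrix glycoproteins higher and 5 lower. Among integrins, the collagen-binding integrin Itga2 rose from 43.7 ± 2.75 to 75.9 ± 5.35 CPM, while Itga1, which prefers collagen IV, fell from 76.9 ± 2.43 to 39.2 ± 3.23 CPM. Tnc, tenascin C, is a matricellular gene that fell, from 307 ± 11.6 to 171 ± 8.57 CPM. Adjusted p for the genes of both paragraphs on matrix ran from 3.01e-18 to 7.12e-05. Lama1 and Col5a1 lost significance with limma on log2(TPM + 0.1).

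Secreted proteases held the largest single loss of transcripts. Adamts1 (GRCm38 chromosome 16, 85793827 to 85803113), which cleaves versican and other proteoglycans, was at 1659, 1551 and 1639 CPM in control A, B and C and at 342, 312 and 347 CPM in day 2 A, B and C. The 2 groups were separated by a wide gap, at -2.27 ± 0.06 (SE) on the log2 scale (adjusted p = 5.14e-25). Adamts5, the aggrecanase that lies 53.1 kb away from it, was at 519, 470.02 and 491 CPM in control A, B and C and at 150.03, 146 and 142 CPM in day 2 A, B and C. It showed the same separation, at -1.76 ± 0.06 (SE) on the log2 scale (adjusted p = 1.93e-22). Some relatives were higher: Adamts2, which trims procollagen, rose from 0.328 ± 0.286 to 3.59 ± 1.24 CPM, and the membrane-bound Mmp14 from 60.6 ± 2.997 to 92.1 ± 7.23 CPM. Adamts2 passed the filter on low counts only through treated libraries, so it could be called higher but hardly lower. Of 28 metalloproteinases and inhibitors 7 were higher and 3 lower. In the plasminogen system and serpins the count was 1 higher and 9 lower of 17. Both plasminogen activators fell, Plat from 142 ± 2.66 to 107 ± 9.59 CPM and Plau from 65.2 ± 1.52 to 48.6 ± 4.95 CPM. The epithelial membrane proteases and their inhibitors were lower as well: Prss8 fell from 6.92 ± 0.286 to 1.58 ± 0.7697 CPM, St14 (matriptase) from 9.67 ± 2.89 to 4.57 ± 1.17 CPM, and Spint1 and Spint2 from 50.3 ± 3.13 to 38.1 ± 3.67 CPM and from 249.9 ± 17.3 to 205 ± 15.6 CPM; St14 lost significance with limma on log2(TPM + 1). The adjusted p values here were 5.14e-25 to 0.00106.

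Of 40 contractile genes, many of them targets of serum response factor, 21 were higher and 1, the focal adhesion gene Zyx, was lower, with a median of 0.28. Changes were mostly modest in abundant members. Actb went from 1571 ± 60.6 to 1897 ± 174 CPM, tropomyosin Tpm1 from 1119 ± 26.2 to 1456 ± 13.95 CPM, caldesmon Cald1 from 488 ± 13.8 to 634 ± 42.8 CPM and the cross-linker Flna from 1126 ± 21.8 to 1509 ± 88.9 CPM. Calponins Cnn1, Cnn2 and Cnn3 rose from 38.3 ± 2.95 to 67.2 ± 6.54 CPM, from 103 ± 6.08 to 178 ± 10.4 CPM and from 558 ± 16.7 to 757 ± 23.5 CPM. Smooth muscle actin Acta2 rose from 3.11 ± 0.429 to 13.7 ± 2.67 CPM, and Tmsb4x, which binds free actin, from 23.01 ± 1.62 to 104 ± 4.09 CPM. Cald1 and Cnn1 lost significance with limma on log2(TPM + 1). Of 21 annexins and S100 proteins, calcium-binding partners of membranes and of each other, 10 were higher and 0 lower by edgeR (lower at an unadjusted p under 0.05: 1; lower by DESeq2 and by limma: 0), with a median of 0.47. S100a10 and S100a11 rose from 182 ± 12.3 to 261 ± 4.28 CPM and from 219 ± 18.8 to 345 ± 19.3 CPM, and Anxa3, Anxa5 and Anxa6 from 145 ± 12.2 to 260.1 ± 29.7 CPM, from 246 ± 13.9 to 346 ± 26.1 CPM and from 325 ± 21.2 to 485 ± 33.6 CPM. For the genes with values here adjusted p ran from 3.02e-22 to 3.14e-04.

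**Figure D3:**
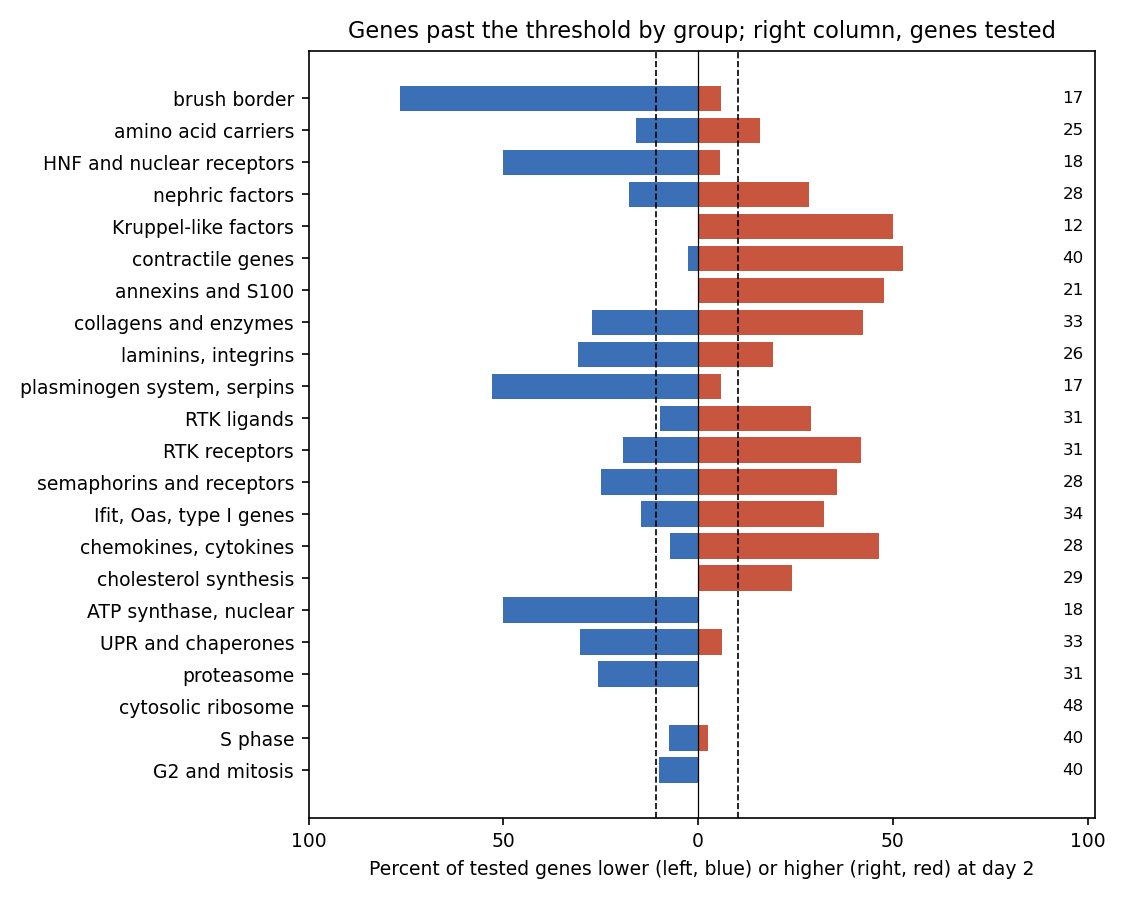
Percent of the tested genes of each group that were lower (blue, to the left) or higher (red, to the right) at day 2, with the number tested at the right edge; dashed lines mark the 10.9% lower and 10.3% higher of all genes. The brush-border group extends farthest to the left and the contractile genes farthest to the right of the groups drawn, and the cytosolic ribosome shows no called gene.

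Growth factor signalling changed at the level of ligands and receptors. Kitl, the ligand of the receptor KIT, was at 26.7, 25.5 and 29.1 CPM in control A, B and C and at 124, 133 and 144 CPM in day 2 A, B and C. All day 2 values were several times the control values, with a difference of 2.302 ± 0.073 (SE) on the log2 scale (adjusted p = 8.20e-23). Igf1, insulin-like growth factor 1, was at 420.3, 410.1 and 421 CPM in control A, B and C and at 133, 135 and 121 CPM in day 2 A, B and C. It moved the other way with no overlap, at -1.69 ± 0.06 (SE) on the log2 scale (adjusted p = 2.34e-21). The main binding protein of that factor in these cells, Igfbp5, fell with it from 1495 ± 106 to 379 ± 26.8 CPM, while Igfbp7 and Igfbp2 rose from 186 ± 13.7 to 268 ± 22.7 CPM and from 53.5 ± 2.11 to 70.7 ± 6.67 CPM. Fgf7, a factor for epithelia, rose from 3.14 ± 0.0907 to 11.5 ± 0.485 CPM and Pdgfb from 26.3 ± 3.76 to 39.7 ± 4.32 CPM. Gdnf, which draws out the ureteric bud, rose from 1.28 ± 0.153 to 6.99 ± 1.42 CPM and its co-receptor Gfra1 from 17.01 ± 2.28 to 39.4 ± 3.33 CPM; the kinase Ret that signals for the pair was below the filter on low counts. Among receptors, Met rose from 230.2 ± 13.2 to 334 ± 7.66 CPM, Fgfr2 from 108 ± 3.11 to 158 ± 7.63 CPM and Fgfr1 from 55.4 ± 2.83 to 72.7 ± 6.304 CPM, whereas Egfr fell from 111 ± 4.24 to 79.3 ± 2.96 CPM, Erbb4 from 84.96 ± 2.94 to 59.7 ± 4.08 CPM, Fgfr4 from 10.4 ± 0.372 to 4.94 ± 1.06 CPM and the collagen receptor Ddr1 from 329.6 ± 21.1 to 233 ± 11.6 CPM. Of these receptors Gfra1, Fgfr1 and Egfr lost significance with limma on log2(TPM + 1). In counts, 9 of 31 ligands were higher and 3 lower, and 13 of 31 receptors and binding proteins higher and 6 lower.

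Transcripts that ERK signalling induces rose in part, with 9 of 25 higher and 3 lower. The phosphatases Dusp4 and Dusp5 rose from 4.08 ± 0.657 to 11.2 ± 0.493 CPM and from 3.297 ± 0.459 to 8.32 ± 2.92 CPM, and the ETS factor Etv4, which acts below GDNF and FGF in the kidney, from 2.21 ± 0.286 to 6.69 ± 0.616 CPM. Spry1, the antagonist of RET signalling in kidney budding, fell from 81.6 ± 8.72 to 58.1 ± 1.23 CPM. Adjusted p for the genes of both paragraphs ran from 8.20e-23 to 0.00154. Erbb4, Fgfr4 and Etv4 lost significance with limma on log2(TPM + 0.1).

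In the TGF-beta family 4 of 14 ligands were higher and 4 lower. The activin and inhibin subunit Inhbb rose from 6.799 ± 1.07 to 23.7 ± 1.07 CPM, Tgfb2 from 15.2 ± 0.635 to 23.3 ± 0.635 CPM and Tgfb3 from 13.9 ± 1.65 to 23.8 ± 0.646 CPM, while Bmp3, an antagonist of other BMPs, fell from 34.6 ± 4.24 to 6.07 ± 0.745 CPM and the stress cytokine Gdf15 from 61.6 ± 9.22 to 19.3 ± 4.45 CPM. Receptors of the family moved both ways: Tgfbr2 fell from 332 ± 14.9 to 239 ± 7.58 CPM and the co-receptor Tgfbr3 from 48.4 ± 1.81 to 19.4 ± 3.15 CPM, and the activin and BMP receptors Acvr1, Acvr2a and Bmpr2 rose from 16.7 ± 1.94 to 25.4 ± 0.955 CPM, from 32.6 ± 5.06 to 46.1 ± 6.91 CPM and from 129.9 ± 9.71 to 161 ± 12.7 CPM. Acvr2a, Bmpr2 and Smad7 lost significance with limma on log2(TPM + 1). Fst, which traps activin outside the cell, fell from 9.88 ± 1.65 to 2.04 ± 0.717 CPM. Among inhibitory feedback genes Smad7 rose from 6.24 ± 1.24 to 12.7 ± 1.62 CPM and Skil from 61.1 ± 5.12 to 102 ± 4.42 CPM; of 19 inhibitors and feedback targets 8 were higher and 4 lower. Across these genes adjusted p was 9.98e-17 to 7.35e-04.

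For WNT signalling, 4 of 8 tested ligands were higher and 1, Wnt11, a factor of ureteric branching, was lower, from 8.26 ± 1.52 to 1.42 ± 0.1995 CPM. Wnt9a rose from 7.98 ± 0.728 to 19.2 ± 2.07 CPM and Wnt6 from 0.662 ± 0.1301 to 3.72 ± 0.184 CPM. Wnt6 passed the filter on low counts only through treated libraries, so it could be called higher but hardly lower. Another 10 of the 18 ligands listed were below the filter. Receptors Fzd7 and Fzd2 rose from 52.2 ± 0.914 to 74.6 ± 13.2 CPM and from 16.7 ± 1.74 to 25.1 ± 2.84 CPM, and Fzd4 and the co-receptor Lrp5 fell from 61.5 ± 3.99 to 39.6 ± 2.64 CPM and from 221 ± 14.2 to 173 ± 6.47 CPM. Among transducers and targets 9 of 27 were higher and 2 lower; Porcn, the enzyme that lipidates WNT proteins for release, rose from 3.85 ± 0.547 to 7.37 ± 1.99 CPM, and the cell polarity gene Vangl1 fell from 99.1 ± 6.63 to 71.8 ± 0.405 CPM. In the Notch pathway the ligands Jag1 and Dll1 fell from 28.2 ± 2.47 to 17.3 ± 1.85 CPM and from 3.86 ± 0.528 to 1.56 ± 0.272 CPM, and Lfng, which modifies Notch receptors, rose from 18.04 ± 1.298 to 28.96 ± 2.31 CPM; 5 of 24 genes were higher and 2 lower. Dll1 and Lfng lost significance with limma on log2(TPM + 1). Notch2 stood at 311 ± 1.53 CPM in control and 309.9 ± 12.4 CPM at day 2, with a 95% interval of the log2 fold change from -0.11 to 0.10. It was picked because that interval was among the narrowest around 0. For the called genes of this paragraph adjusted p ran from 1.51e-08 to 0.00388.

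Guidance molecules, first known from growing nerve fibres and also used by the developing kidney, exchanged members. Of 28 semaphorins, plexins and neuropilins 10 were higher and 7 lower. Of 7 tested class 3 semaphorins, which are secreted, 5 were higher. Sema3a was at 34.8, 30.9 and 30.6 CPM in control A, B and C and at 109, 108 and 119.6 CPM in day 2 A, B and C. The groups did not overlap (1.82 ± 0.07 (SE) on the log2 scale). Sema3e rose from 29.7 ± 2.37 to 66.7 ± 7.09 CPM and Sema3f from 48.3 ± 5.75 to 63.1 ± 7.31 CPM, and Sema3d from 1.02 ± 0.221 to 12.01 ± 1.62 CPM. Of 8 tested membrane-bound semaphorins of classes 4 and 5 none was higher and 5 were lower: Sema4d fell from 147 ± 7.87 to 75.8 ± 12.9 CPM, Sema4b from 90.002 ± 6.32 to 57.8 ± 4.79 CPM and Sema5b from 18.9 ± 1.13 to 4.799 ± 0.703 CPM. The 2 neuropilins, co-receptors for class 3 semaphorins, parted, with Nrp1 down from 40.3 ± 4.05 to 19.2 ± 1.03 CPM and Nrp2 up from 61.6 ± 4.05 to 111 ± 7.09 CPM. Ephrin B ligands Efnb1 and Efnb2 fell from 78.4 ± 6.43 to 52.5 ± 1.82 CPM and from 138 ± 11.3 to 82.9 ± 2.92 CPM, as did netrin 1 (Ntn1), from 187 ± 6.19 to 124 ± 3.304 CPM, and the receptor Epha4 rose from 17.2 ± 1.03 to 33.9 ± 2.46 CPM; 6 of 23 ephrins, slits and netrins were higher and 6 lower. Their adjusted p values lay in the range 4.06e-20 to 0.00221. Sema3f lost significance with limma on log2(TPM + 0.1).

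Genes of the Ly6 family, small surface proteins of which many lie side by side, were higher together along a stretch of chromosome; it was singled out after its values were seen. Between Psca and Ly6g2 on chromosome 15 (74714839 to 75222661, GRCm38) 10 genes were tested, of which 9 were higher and 0 lower by edgeR (none lower at an unadjusted p under 0.05, by DESeq2 or by limma). The 9 include Them6, a neighbour outside the family, and the predicted gene Gm39556. Gm39556 and Ly6g were barely counted in control, at 0.154 ± 0.0489 and 0.150 ± 0.177 CPM. At day 2 they were at 1.53 ± 0.300 and 2.37 ± 0.712 CPM. Both passed the filter on low counts only through treated libraries, so they could be called higher but hardly lower. Ly6d was at 1.84, 0.8302 and 0.836 CPM in control A, B and C and at 28.4, 21.05 and 23.6 CPM in day 2 A, B and C. Every day 2 value was more than 10 times every control value. Lynx1, which binds nicotinic acetylcholine receptors, was at 60.7, 60.2 and 58.01 CPM in control A, B and C and at 265, 245 and 255 CPM in day 2 A, B and C. Its groups were also widely separated (2.10 ± 0.06 (SE) on the log2 scale, adjusted p = 4.62e-24). Ly6a, a marker of progenitor cells in mice, rose from 108 ± 15.05 to 577 ± 38.2 CPM, Ly6c1 from 5.93 ± 0.921 to 82.3 ± 8.79 CPM, Psca from 2.55 ± 0.417 to 5.597 ± 1.91 CPM and Them6 from 72.1 ± 11.3 to 139 ± 11.5 CPM. Ly6g2, at the far end, stood at 9.297 ± 1.5998 CPM in control and 11.2 ± 1.096 CPM at day 2 and did not pass (adjusted p = 0.272). Ly6a and Ly6c1 have close copies nearby that can share reads, so their values are uncertain. Relatives elsewhere in the genome went the other way: Lypd6 and Lypd6b fell from 9.61 ± 1.39 to 4.78 ± 0.6203 CPM and from 34.2 ± 1.81 to 7.71 ± 2.05 CPM. For the called genes adjusted p ran from 4.62e-24 to 0.00354. Psca lost significance with limma on log2(TPM + 0.1).

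**Figure D4:**
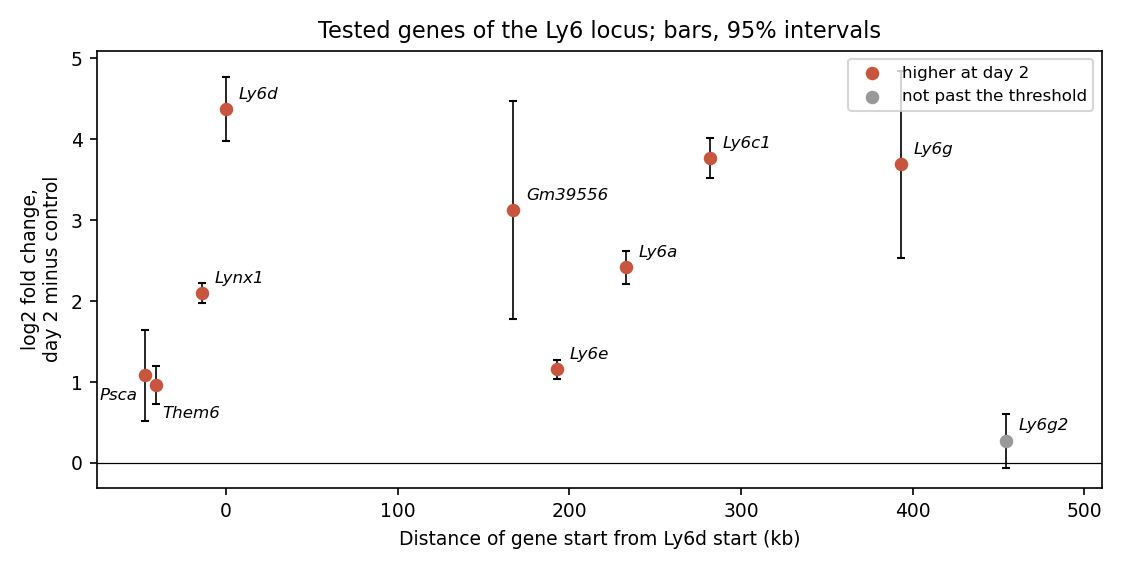
log2 fold change (day 2 minus control) with its 95% interval for the 10 tested genes between Psca and Ly6g2, placed by the distance of each gene's start from that of Ly6d in kb. The 9 genes past the threshold (red) all lie above 0, and Ly6g2 (grey) has an interval that includes 0.

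Interferon-stimulated genes did not move as one. Ifit3 was at 80.6, 77.3 and 76.1 CPM in control A, B and C and at 8.71, 4.68 and 9.73 CPM in day 2 A, B and C. All day 2 values were far under all control values, with day 2 B lowest. Its neighbour and near copy Ifit3b, 19.2 kb away, fell from 31.7 ± 2.91 to 2.72 ± 0.538 CPM, and Ifit2 from 106 ± 6.06 to 72.6 ± 6.82 CPM. These genes encode RNA-binding antiviral proteins. Gbp2, a guanylate-binding protein that acts against intracellular pathogens, was at 6.57, 7.19 and 7.42 CPM in control A, B and C and at 22.4, 19.9 and 24.8 CPM in day 2 A, B and C. It was higher in every day 2 library. Oasl2 rose from 5.597 ± 0.334 to 11.9 ± 0.634 CPM, Parp14 from 27.1 ± 2.26 to 49.1 ± 3.001 CPM and Ifi204, a DNA sensor of the p200 family, from 4.39 ± 0.654 to 14.7 ± 2.09 CPM. Of 34 Ifit, Oas and other type I genes 11 were higher and 5 lower, of 11 interferon-inducible GTPases 5 and 1, and of 5 p200 genes 3 were higher. These families hold near-identical copies, so single members are uncertain. In antigen presentation 8 of 23 genes were higher and 1 lower. Ciita, the switch of class II genes, fell from 6.28 ± 1.33 to 1.77 ± 0.487 CPM, and H2-DMb2, a class II loading factor, from 16.2 ± 2.52 to 2.005 ± 0.525 CPM. Receptors for interferon gamma rose, Ifngr1 from 126 ± 7.42 to 194 ± 19.6 CPM and Ifngr2 from 73.7 ± 6.57 to 115 ± 6.81 CPM, as did Irf1 from 57.9 ± 3.51 to 80.4 ± 4.67 CPM, while Irf7 and Irf8 fell from 7.49 ± 0.814 to 3.81 ± 1.24 CPM and from 22.3 ± 1.62 to 12.1 ± 0.801 CPM. These changes had adjusted p values of 7.85e-18 to 5.07e-04. Ciita lost significance with limma on log2(TPM + 0.1).

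Promoters of 3 of these genes are shown because genes with the same short string moved in opposite directions. The letters AAANNGAAA, part of the element through which interferon acts, were sought on both strands of the 250 bases before the start, in the 10050 tested genes with a promoter in the RefSeq table (build GRCm38.p6). They were present in 8.18% of these genes, in 18.0% of the 161 that were at least 2-fold higher and in 9.13% of the 230 that were at least 2-fold lower. Each sequence runs 5′ to 3′ on the strand of its gene. Matches, read on the strand opposite the gene in each case, are in capitals.
Ifit3 (chr19:34583359-34583418, plus strand, upstream of the start): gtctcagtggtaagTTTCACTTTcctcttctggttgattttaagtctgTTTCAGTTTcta
Ifit3b (chr19:34607755-34607814, plus strand, upstream of the start): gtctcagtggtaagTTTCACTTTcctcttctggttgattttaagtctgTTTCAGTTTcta
Gbp2 (chr3:142620573-142620632, plus strand, upstream of the start): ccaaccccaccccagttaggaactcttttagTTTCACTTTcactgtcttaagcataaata
The windows of Ifit3 and Ifit3b, which fell together, are the same letter for letter, each with 2 matches, and that of Gbp2, which rose, has 1 match. Gbp2 and the other two thus share the string but not the direction. A match of letters is a description and does not show binding. Another 5 strings were sought in the same way, and their shares went in different directions. The AP-1 string TGANTCA was in 5.32% of all promoters, in 17 of the 161 of genes at least 2-fold higher and in 30 of the 230 of those at least 2-fold lower. For the TEAD string CATTCC these numbers were 12.7%, 23 and 38, and for the NF-kB string GGGNNTTCC 7.43%, 14 and 8. The aryl hydrocarbon receptor string TNGCGTG was in 7.96% of all and in 6 and 12 of the same promoters, and the HNF4 string CAAAGTCCA in 0.408% of all and in 0 and 1.

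In the NF-kB pathway and among cytokines more genes rose than fell. Of 26 subunits and inhibitors 6 were higher and 1 lower, among them Nfkb1, from 125 ± 3.003 to 166 ± 10.2 CPM, Nfkbia, which holds NF-kB in the cytoplasm, from 26.4 ± 3.101 to 37.4 ± 2.21 CPM, and the adaptor kinase Ripk2, from 10.1 ± 0.794 to 24.7 ± 0.284 CPM. Of 28 chemokines and cytokines 13 were higher and 2 lower. Cx3cl1 rose from 16.8 ± 1.72 to 32.9 ± 5.14 CPM, Cxcl1 from 17.7 ± 0.912 to 27.7 ± 5.16 CPM, Cxcl5 from 28.8 ± 4.06 to 49.3 ± 3.71 CPM and Lcn2, the lipocalin shed by injured tubules, from 40.6 ± 9.78 to 82.1 ± 6.71 CPM, while complement C3 fell from 542 ± 46.5 to 428 ± 16.9 CPM. C3 lost significance with limma on log2(TPM + 1). Of 27 AP-1 and immediate early factors 9 were higher and 2 lower. Junb rose from 16.9 ± 1.67 to 32.8 ± 0.977 CPM, Ier5 from 50.1 ± 5.53 to 69.7 ± 1.66 CPM and Zfp36l1, which speeds the decay of some messenger RNAs, from 163 ± 12.7 to 219.9 ± 28.6 CPM, and the lower ones, Fosl2 and Atf3, fell from 178 ± 6.75 to 80.9 ± 5.11 CPM and from 24.2 ± 1.77 to 16.6 ± 1.41 CPM. Cntf, a cytokine of the interleukin 6 family, fell from 40.6 ± 4.65 to 5.71 ± 0.285 CPM. In this group adjusted p ran from 1.50e-17 to 4.43e-04. Atf3 lost significance with limma on log2(TPM + 0.1).

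Proliferation genes stayed near their control levels. Of 40 S-phase genes 1 was higher and 3 were lower, and of 40 genes of G2 and mitosis 0 were higher by edgeR (at an unadjusted p under 0.05: 1; by DESeq2 and by limma: 0) and 4 lower, below the shares of all genes in either direction. Mcm6, a subunit of the replicative helicase, stood at 446 ± 8.53 CPM in control and 445 ± 26.2 CPM at day 2 (95% interval of the log2 fold change -0.11 to 0.11) and Uhrf1, which copies DNA methylation, at 415 ± 3.604 CPM in control and 412 ± 10.7 CPM at day 2 (interval -0.12 to 0.09). Both were picked because their intervals were among the narrowest around 0, so they do not stand for the group. Rrm2, the S-phase subunit of ribonucleotide reductase, fell from 160.4 ± 3.94 to 123 ± 9.06 CPM. Inhibitors and cyclins moved singly: the cell cycle inhibitor Cdkn1a was at 181, 214 and 203 CPM in control A, B and C and at 86.1, 78.6 and 79.9 CPM in day 2 A, B and C. Its day 2 values all lay under its control values (-1.29 ± 0.08 (SE) on the log2 scale). Ccnd1, cyclin D1, rose from 6.57 ± 0.377 to 11.5 ± 3.16 CPM, Cdk6 from 76.3 ± 4.05 to 117 ± 10.6 CPM and Ccng2, which is found in arrested cells, from 52.99 ± 4.83 to 80.4 ± 8.99 CPM. Of 37 p53 genes and targets 7 were higher and 3 lower. Trp53inp1 rose from 36.8 ± 6.89 to 69.7 ± 3.82 CPM and Perp from 33.1 ± 2.34 to 57.7 ± 6.15 CPM. The lower ones included Cdkn1a, with the values above, and Gdf15, from 61.6 ± 9.22 to 19.3 ± 4.45 CPM. In the BCL2 family and death genes 3 of 27 were higher and 3 lower, and Bcl2l11, which promotes apoptosis, fell from 124 ± 3.68 to 93.4 ± 5.56 CPM. The share called in that group, 22.2%, was near the 21.2% of all genes. Cdk6 lost significance with limma on log2(TPM + 1). Adjusted p for these called genes ran from 1.75e-13 to 0.00201.

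Drug and redox metabolism changed gene by gene. Cyp1b1, an oxidase under the aryl hydrocarbon receptor, was at 1.15, 1.52 and 1.15 CPM in control A, B and C and at 19.3, 20.8 and 19.1 CPM in day 2 A, B and C. All 3 day 2 values were above all control values. Of 8 tested genes of that receptor and its targets 4 were higher and 2 lower; Tiparp rose from 47.1 ± 3.45 to 66.3 ± 0.639 CPM, and Cyp1a1, the best known target, was below the filter on low counts, at 0.69 ± 0.22 CPM in control and 0.205 ± 0.181 CPM at day 2. Tiparp and Ugt1a1 lost significance with limma on log2(TPM + 0.1). Por, which hands electrons to all microsomal cytochromes P450, fell from 384 ± 8.99 to 226 ± 2.47 CPM and Fmo2 from 54.4 ± 2.54 to 20.8 ± 2.45 CPM. Ugt1a1, which conjugates bilirubin, fell from 12.1 ± 1.81 to 1.197 ± 0.379 CPM (adjusted p = 0.004004); reads of the exons it shares with its neighbours make that value uncertain. Of 37 glutathione and NRF2 genes 9 were higher and 9 lower. Gpx3, the secreted glutathione peroxidase made by proximal tubules, rose from 161 ± 12.2 to 441 ± 37.2 CPM, and Gclc, the enzyme that starts glutathione synthesis, from 109 ± 8.04 to 147 ± 6.17 CPM. Gstm1 fell from 1325 ± 28.97 to 709 ± 45.9 CPM and Gsr, glutathione reductase, from 270.5 ± 7.37 to 151 ± 9.39 CPM; the Gstm genes are close copies and their values are uncertain. Of 15 tested genes of the oestrogen receptors and their targets 5 were higher and 2 lower. Stc2, a target in breast cells, fell from 128 ± 0.927 to 35.7 ± 0.8701 CPM. Cited2 rose from 108 ± 8.08 to 146 ± 7.04 CPM and Rab31 from 27.7 ± 0.403 to 39.7 ± 0.840 CPM. Lcn2 and Ccnd1, higher, and C3, lower, are also of this list and have their values above. These counts cannot tell an effect of the ligand apart from the other differences between the groups. The adjusted p values of the other called genes with values here were 1.61e-20 to 5.98e-06.

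Single genes of lipid and carbon metabolism moved in both directions. Of 29 genes of cholesterol synthesis and uptake 7 were higher and 0 lower by edgeR (lower at an unadjusted p under 0.05: 2; lower by DESeq2 and by limma: 0), with a median of 0.13: Insig1 rose from 144 ± 11.1 to 189 ± 14.04 CPM, Cyp51 from 155 ± 11.7 to 198 ± 8.82 CPM and the master regulators Srebf1 and Srebf2 from 173 ± 8.48 to 214 ± 11.2 CPM and from 639.7 ± 20.8 to 734 ± 44.6 CPM. Srebf2 lost significance with limma on log2(TPM + 1). Plin2, the coat of lipid droplets, rose from 96.6 ± 3.97 to 146 ± 11.96 CPM, and Mgll, which completes fat breakdown, fell from 34.7 ± 1.903 to 4.004 ± 0.758 CPM. In fatty acid oxidation 6 of 47 were higher and 8 lower, with Acaa2, a mitochondrial thiolase, down from 76.1 ± 7.49 to 33.7 ± 1.88 CPM and Cpt1a, the gate of fatty acids into mitochondria, from 174 ± 5.302 to 141 ± 2.66 CPM. Vldlr, a lipoprotein receptor, fell from 533 ± 28.8 to 317 ± 9.098 CPM. Aldh1a2, which makes retinoic acid, fell from 338 ± 13.3 to 210.3 ± 4.75 CPM, and Stra6, the receptor that takes up retinol, rose from 31.9 ± 0.861 to 61.7 ± 9.33 CPM. Of 39 genes of glycolysis and the pentose phosphate path 3 were higher and 7 lower. For these genes adjusted p ran from 5.13e-16 to 0.007502. Cyp51 lost significance with limma on log2(TPM + 0.1).

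Nuclear genes of the respiratory chain were lower or not called. Complex I had 7 of 37 lower, complexes II to IV 8 of 26 and the ATP synthase 9 of 18, with 0 higher in each by edgeR (at an unadjusted p under 0.05: 0, 1 and 1; by DESeq2 and by limma: 0). Changes were small, as in Ndufa8 from 52.3 ± 4.67 to 38.3 ± 4.73 CPM, Cycs, cytochrome c, from 113 ± 4.08 to 90.9 ± 13.9 CPM and Atp5c1 from 190.03 ± 5.78 to 154 ± 9.28 CPM; Cycs lost significance with limma on log2(TPM + 1). The 13 mitochondrially encoded transcripts had a median of 0.28 with 0 past the threshold by edgeR (at an unadjusted p under 0.05: 2 higher; by DESeq2: 1 higher; by limma: 0), and their share of counts was highest in day 2 B, as given above; its part in that median was not tested. Proteasome subunits likewise had 8 of 31 lower and 0 higher by edgeR (at an unadjusted p under 0.05: 1; by DESeq2 and by limma: 0). For the mitochondrial ribosome the count was 7 of 54 lower, near the 10.9% of all genes. There, 0 were higher by edgeR (at an unadjusted p under 0.05, by DESeq2 and by limma: 0), against 10.3% of all genes. The median was -0.11, and 9 of the 54 had a positive change. In contrast, 0 of 48 cytosolic ribosomal protein genes passed, with a median of 0.01; at an unadjusted p under 0.05 the number was 3 and with DESeq2 2. Endoplasmic reticulum chaperones and sensors were lower in 10 of 33 cases and higher in 2: the chaperone Hyou1 fell from 159 ± 4.33 to 121 ± 9.33 CPM, Creld2 from 97.3 ± 3.14 to 71.96 ± 11.4 CPM, calreticulin (Calr) from 954 ± 56.3 to 800.3 ± 41.6 CPM and Eif2ak3, the sensor PERK, from 55.4 ± 4.75 to 34.5 ± 3.64 CPM. Adjusted p for the genes named with values ran from 1.66e-07 to 0.00448. Calr lost significance with limma on log2(TPM + 0.1).

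Metals, the clock and cilia added single changes. Ceruloplasmin (Cp), the copper enzyme that lets iron leave cells, rose from 534 ± 34.7 to 865 ± 84.8 CPM and the iron exporter Slc40a1 from 42.7 ± 6.29 to 69.8 ± 2.33 CPM. The zinc and iron importer Slc39a14 fell from 114 ± 4.33 to 54.5 ± 5.65 CPM and metallothionein Mt2 from 22.4 ± 4.42 to 11.5 ± 2.15 CPM. Bhlhe41, a repressor in the circadian clock, fell from 26.1 ± 3.599 to 10.03 ± 0.834 CPM; of 21 clock genes 3 were higher and 4 lower. Of 44 cilium and cyst genes 5 were higher and 5 lower. The share called, 22.7%, was near the 21.2% of all genes. Among the lower ones the cystin gene Cys1 fell from 65.95 ± 4.803 to 31.99 ± 5.51 CPM, the kinesin Kif12 from 41.8 ± 5.77 to 11.9 ± 2.25 CPM and the membrane raft protein Mal from 96.8 ± 5.397 to 20.6 ± 1.22 CPM. Pkhd1, the fibrocystin gene of the renal cilium, rose from 222 ± 11.4 to 279 ± 16.1 CPM (adjusted p = 1.91e-05) and lost significance with limma on log2(TPM + 1). Gc, the vitamin D binding protein, rose from 2.81 ± 0.584 to 13.1 ± 2.71 CPM (adjusted p = 1.81e-10). For the other genes of this paragraph adjusted p was 6.09e-20 to 3.19e-04. Kif12 lost significance with limma on log2(TPM + 0.1).

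Of the group members first picked to describe a role, 14 passed the edgeR threshold, 5 higher and 9 lower, and lost it when a library was left out; they were set apart from the accounts of their groups after that was seen, and they stay in every count. For each, the second p is the largest of the 6 fits that leave out 1 library. All but Spry2 also lost significance with limma on log2(TPM + 1), and all 14 did with limma on log2(TPM + 0.1). With DESeq2, Ahr, Hspa5, Cdhr2 and Plaur lost it as well. Of the basement membrane laminins, Lama5 went from 862 ± 51.9 to 749 ± 16.9 CPM (adjusted p = 0.00631, or 0.0878 without control C) and Lamb1 from 472 ± 9.696 to 409.8 ± 57.96 CPM (adjusted p = 0.0438, or 0.267 without day 2 B). The protocadherins of the brush border Cdhr2 and Cdhr5, which link the tips of microvilli, went from 3.12 ± 0.912 to 1.34 ± 0.671 CPM (adjusted p = 0.0207, or 0.0942 without control C) and from 2.43 ± 0.82002 to 0.803 ± 0.313 CPM (adjusted p = 0.00862, or 0.0701 without control C). Changes in abundant members were small. The chaperones Hspa5 and Hsp90b1, the main ones of the endoplasmic reticulum, went from 695 ± 15.4 to 617 ± 77.1 CPM (adjusted p = 0.0488, or 0.411 without day 2 B) and from 1210.1 ± 50.3 to 1066 ± 103 CPM (adjusted p = 0.01903, or 0.125 without day 2 B). Slc3a2, the heavy chain of several amino acid exchangers, went from 218 ± 14.3 to 245 ± 11.1 CPM (adjusted p = 0.0344, or 0.151 without control C) and B2m, the light chain of class I molecules, from 139 ± 3.89 to 169 ± 27.2 CPM (adjusted p = 0.0345, or 0.146 without day 2 A). Members with roles in signalling and kidney development were among them too. The cadherin Cdh2 of mesenchyme and proximal tubule went from 92.8 ± 4.78 to 109.9 ± 10.8 CPM (adjusted p = 0.0215, or 0.111 without day 2 B), and Plaur, the receptor of the activator Plau, from 33.2 ± 0.837 to 27.7 ± 0.763 CPM (adjusted p = 0.0449, or 0.127 without day 2 A). Ahr, the aryl hydrocarbon receptor itself, went from 33.8 ± 1.47 to 27.98 ± 2.85 CPM (adjusted p = 0.0239, or 0.192 without day 2 A), and Gata3, a factor of the nephric duct, from 5.52 ± 1.07 to 3.18 ± 0.724 CPM (adjusted p = 0.00718, or 0.0681 without day 2 C). The ERK targets Etv5 and Spry2 went from 2.94 ± 1.31 to 6.19 ± 1.44 CPM (adjusted p = 0.00848, or 0.0603 without control B) and from 4.18 ± 1.24 to 7.15 ± 0.573 CPM (adjusted p = 0.00815, or 0.0716 without control B). Each of these calls was thus lost in at least 1 of the 6 fits, that of Plaur in all 6 and those of Lamb1 and B2m in 5.

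Levels at days 6 and 12 place the early changes in time; these comparisons use the same control libraries, so each gene's values are set side by side and no agreement between days is drawn from them. Several genes went farther from control by day 6. Kcnj16 had 0.561 ± 0.0323 CPM on day 6 and 0.595 ± 0.368 CPM on day 12, and the change from day 2 to day 6 was -4.02 ± 0.25 (SE) (adjusted p = 4.10e-15). Adamts1 was at 83.3 ± 5.84 CPM and 82.7 ± 5.14 CPM (-2.01 ± 0.06 (SE) from day 2 to day 6, adjusted p = 3.31e-23). Igf1 was at 58.6 ± 2.82 CPM and 74.9 ± 6.48 CPM (adjusted p = 1.14e-15), and Kitl at 218 ± 1.703 CPM and 192 ± 4.82 CPM (adjusted p = 9.87e-12). Other genes were near their later level already: Rasl11b measured 5.61 ± 1.12 CPM on day 6 and 7.81 ± 0.515 CPM on day 12 and did not differ past the threshold between days 2 and 6 (adjusted p = 0.727). Some genes moved back toward control. All of those below but Pax8 were picked for their day 2 change, and the test of day 6 against day 2 reuses the same day 2 libraries. Such a choice favours a move back toward control, and its part in these p-values was not tested. Plxna2, a plexin receptor, was at 4.59 ± 1.09 CPM in control and 25.6 ± 3.92 CPM at day 2, then 10.01 ± 1.38 CPM and 16.7 ± 2.57 CPM, with a day 6 minus day 2 difference of -1.33 ± 0.15 (SE) (adjusted p = 4.83e-09). Lhx1 was at 5.62 ± 0.544 CPM in control and 24.1 ± 3.97 CPM at day 2, then 14.97 ± 1.87 CPM and 13.2 ± 1.41 CPM (adjusted p = 1.13e-04). Ifit3, low at day 2, was at 20.9 ± 3.72 CPM and 16.8 ± 1.49 CPM (adjusted p = 9.27e-08). Scd2 was back near control on day 6 and below it on day 12, at 2002 ± 52.9 CPM and 1312 ± 41.5 CPM (adjusted p = 4.62e-07 for day 6 against day 2). Pax8 itself was at 256 ± 10.9 CPM and 242 ± 10.5 CPM, below its day 2 level (adjusted p = 7.19e-10 for day 6 against day 2).

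**Figure D5:**
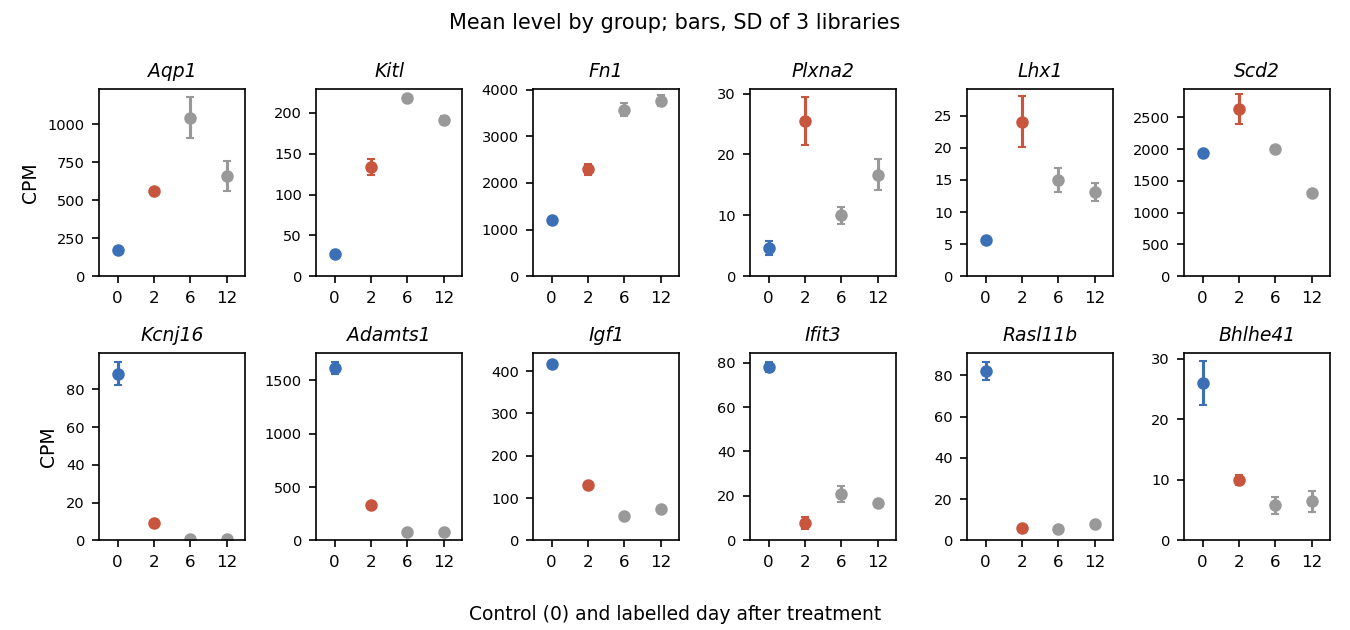
Mean level (CPM, linear axes from 0) of 12 genes in control (blue, 0), day 2 (red) and days 6 and 12 (grey), with bars for the SD of 3 libraries. Kcnj16, Adamts1 and Igf1 are lower at day 6 than at day 2, and Plxna2, Lhx1 and Scd2 have their highest mean at day 2.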

How the data were processed

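PolyA RNA of 12 libraries was sequenced. Reads were handled by the authors with RSEM 1.3.3 and STAR 2.7.8a on GRCm38, after FastQC 0.11.8 and cutadapt 2.3, per the submitters' processing notes. Annotation release, strand setting and filters: not given in the sources used here, and reads of overlapping or antisense genes may not be told apart. The deposited expected counts are whole numbers without normalization, and in 34 to 60 genes per library a count of 0 stood beside a TPM above 0. The TPM values were deposited by the authors in a second table and used only in alternatives. No column was left out (0 unused).

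Counts were filtered with filterByExpr by group and scaled by TMM, and 1 quasi-likelihood model of all 12 libraries was fitted in edgeR 4.0.16 (R 4.3.3) with 8 residual degrees of freedom. The contrast was day 2 minus control, two-sided, with Benjamini-Hochberg adjustment over 13513 genes and a threshold of 0.05; the contrast of day 6 minus day 2 was taken from the same model. All 12 libraries share 1 estimate of the spread. Chi-square per degree of freedom between replicates was 2.124 to 7.562, so no pair was a copy. Positions came from GENCODE M21 and promoters from RefSeq (10050 of 13500 tested symbols matched).

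Named genes were Pax8, Pax2 and Cre, the 20 largest rises and falls in fold (mean of at least 5 CPM, no overlap) and the 10 largest in CPM, up to 6 members per list by p and members needed to complete a role, and 4 with the narrowest interval around 0; genes picked otherwise are said to be so, and some genes the rule names are not reported here. The members and the lists were chosen with earlier results of these data known. Alternatives were DESeq2 1.42.0, limma 3.58.1 on log2(TPM + 1) and log2(TPM + 0.1), other scaling and filters, fewer libraries and the replicate letter as a block.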

Additional observations from a re-analysis of the deposited data

How the results depend on the processing

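With limma on log2(TPM + 1), 1744 genes passed, 745 of them higher; 354 passed at 2-fold or more and 130 of these were higher. With limma on log2(TPM + 0.1) and no filter 1356 passed, 618 higher and 738 lower. With a mean of at least 5 CPM, 300 passed at 2-fold or more, 113 higher and 187 lower, as fewer genes were tested. The cause of the lower counts with TPM was not tested. Leaving out 1 library in turn gave 2339 to 3083 genes. Atp6v0a1, which passed as higher with edgeR, turned to -0.038 (adjusted p = 0.855) and -0.039 (adjusted p = 0.971) with the limma fits, and its change is not reported. Of 369 called genes followed by name DESeq2 kept 362, limma on log2(TPM + 1) 317 and limma on log2(TPM + 0.1) 282, and leaving out 1 library lost 9 to 16 of them. The 14 of these that the report describes stand there in a paragraph of their own; since they were set apart with these results known, the absence of such losses among the other described genes says nothing about stability. Apart from Atp6v0a1 none of the 369 reversed under these settings. Of 2520 counts over lists and alternatives 2278 stayed within 1.5 times. Deviations of same-letter control and day 2 libraries from their group means had correlations of 0.0045, 0.021 and -0.137. With 3 libraries a group, these values cannot decide whether the letters pair the samples. With the replicate block 2932 genes passed in all libraries and 2379 in the 6 libraries alone, against 2860 and 2403 without it. Of the 3379 genes of lowest level 14.4% were called, with a median change of 1.39 on the log2 scale; the part of depth in this was not tested.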

Other observations

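Further groups had changes that the comparison above does not cover. Of 25 tested Hox genes, which set position along the body axis and keep their pattern in cultured kidney cells, 6 were higher and 2 lower. Hoxa10 rose from 46.8 ± 3.55 to 63.1 ± 6.91 CPM, and Hoxb2 fell from 28.5 ± 2.102 to 19.95 ± 1.43 CPM. Hypoxia factors and targets had 8 of 21 higher and 2 lower, with Ndrg1 up from 451 ± 11.8 to 590.03 ± 31.6 CPM, Hif1a, the oxygen-regulated factor itself, from 174 ± 4.28 to 223 ± 0.839 CPM and the procollagen hydroxylase P4ha1 down from 256 ± 9.64 to 207 ± 9.43 CPM. Of 33 YAP and TEAD targets 17 were higher and 6 lower, and tissue factor F3, which starts blood clotting, fell from 163 ± 17.7 to 87.5 ± 5.49 CPM. Adjusted p for the genes with values in this paragraph ran from 3.93e-11 to 5.28e-04 (edgeR).

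The lysosome and the vacuolar proton pump had 5 of 45 genes higher and 7 lower. The share called was 26.7%, against 21.2% of all genes, and the higher ones were near the 10.3% of all genes. Psap, the precursor of sphingolipid activator proteins, rose from 1773 ± 92.7 to 2238 ± 221 CPM, Ids, the sulfatase that clears dermatan and heparan sulfate, from 80.7 ± 4.37 to 117 ± 18.6 CPM, and the pump subunit Atp6v1e1 fell from 155 ± 3.63 to 115 ± 13.6 CPM. Another subunit, Atp6v1a, stood at 360.04 ± 15.4 CPM in control and 361 ± 12.99 CPM at day 2, with a 95% interval of the log2 fold change from -0.11 to 0.11, one of the narrowest around 0 among the genes of all groups. For the 3 called genes adjusted p ran from 7.46e-06 to 0.00178 (edgeR).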
